A study of Mus musculus with 24 samples.

Results

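Of the 24195 gene symbols counted in this mouse series, 39 belong to the transforming growth factor beta (TGF-beta) and bone morphogenetic protein (BMP) signalling pathways and were taken by symbol. They are 11 ligands, 3 proteins that process or store ligands, 6 type I receptors, 4 type II receptors, 3 co-receptors or pseudoreceptors, 8 Smad proteins and 4 secreted BMP antagonists. Messenger RNA was measured by bulk sequencing in 4 organs of the reproductive axis (whole uterus, ovary, pituitary and hypothalamus) of C57BL6 females aged 8 to 10 weeks. All females were virgin before timed mating and were taken at 2.5 days post coitus (dpc), a stage before implantation. Each organ gave 3 libraries from mice labelled as Kdm4a knockout and 3 from wild-type mice, so 24 libraries fall into 8 groups, and the labels call them biological replicates. Kdm4a encodes a histone lysine demethylase, the labels do not say which allele the knockout mice carry, and no other allele, agent or hormone treatment is named for any group. Levels are CPM (counts scaled to a common library total) with library sizes scaled by TMM over all 24 libraries. Kdm4a measured 58.8, 59.1 and 64.0 CPM in the knockout-labelled uteri, against 89.5, 88.7 and 79.0 CPM in wild-type uteri, and the log2 fold change was -0.50 (SE 0.12, edgeR adjusted p = 0.122). In the other 3 organs the genotypes overlapped in Kdm4a, at 33.4 to 79.1 CPM in KO-labelled and 69.9 to 74.9 CPM in wild-type ovaries, 47.0 to 69.2 and 50.04 to 58.8 CPM in pituitaries, and 32.9 to 66.9 and 28.6 to 44.6 CPM in hypothalami, in the same order, so the libraries are called KO-labelled throughout.

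TGF-beta superfamily ligands are secreted dimers that bring together type II and type I receptor kinases at the cell surface. The type II receptor phosphorylates the type I receptor, which in turn phosphorylates Smad2 and Smad3 (TGF-beta and activin branch) or Smad1, Smad5 and Smad9 (BMP branch), and these enter the nucleus with Smad4 while Smad6 and Smad7 hold the signal back. Outside the cell, noggin, gremlin and the chordins bind BMPs and keep them from their receptors. In the mouse uterus BMP signals act in implantation and decidualisation, in the ovary ligands of this family made by the oocyte and granulosa cells direct follicle growth, and in the pituitary activins and BMPs act on gonadotrophs.

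Promoters of members with contrasting base make-up are shown, for members called higher in the uterus (Gdf10) and in the ovary (Bmpr1b and Grem1) in the organ comparison. RefSeq (GRCm38.p6) gave 34 start sites for 27 of the 39 members, and the 250 bases before each start were read. The Gdf10 window (chr14:33923337-33923586, plus strand) has 78.8% G+C and 35 CpG dinucleotides. The Bmpr1b window (chr3:141982265-141982514, minus strand) lies before one of the start sites listed for it and has 46.8% G+C and 1 CpG. The Grem1 window (chr2:113758649-113758898, minus strand) has 72.0% G+C and 24 CpGs. Each is given 5′ to 3′ on the strand of its gene in lower case, and capitals mark matches to the motifs searched.
Gdf10: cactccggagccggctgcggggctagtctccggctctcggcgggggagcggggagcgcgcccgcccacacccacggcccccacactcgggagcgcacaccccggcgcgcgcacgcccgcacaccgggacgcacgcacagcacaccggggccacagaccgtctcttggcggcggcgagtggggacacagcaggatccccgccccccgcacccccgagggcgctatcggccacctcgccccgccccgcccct
Bmpr1b: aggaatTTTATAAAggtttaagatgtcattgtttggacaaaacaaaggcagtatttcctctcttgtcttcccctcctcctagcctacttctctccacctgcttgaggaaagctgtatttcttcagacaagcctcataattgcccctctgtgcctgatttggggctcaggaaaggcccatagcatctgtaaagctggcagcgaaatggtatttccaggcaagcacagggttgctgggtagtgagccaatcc
Grem1: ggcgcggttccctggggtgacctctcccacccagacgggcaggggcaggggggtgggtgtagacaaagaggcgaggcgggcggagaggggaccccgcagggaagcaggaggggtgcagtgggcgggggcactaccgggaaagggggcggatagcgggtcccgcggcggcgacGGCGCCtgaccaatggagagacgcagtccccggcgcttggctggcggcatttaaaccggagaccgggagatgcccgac

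Over the 34 windows the median G+C content was 65.2% and the median number of CpGs 22, against 52.4% and 6 over the 32851 windows of all genes in the table. The BMP Smad element GGCGCC, searched on both strands, occurred in 7 of the 34 windows (20.6%), those of Tgfbr1, Bmpr1a, Bmpr2, Smad5, Smad9, Grem1 and Chrd, and in 9.59% of all windows. It holds G and C letters only, so a window rich in them holds it more easily. The letters TATAAA occurred in 3 member windows (Tgfb2, Gdf11 and Bmpr1b, 8.82%) and in 12.4% of all windows, and the Bmpr1b capitals hold them on both strands with an overlap. The Smad palindrome GTCTAGAC and the steroidogenic factor site CAAGGTCA, searched in the same way, occurred in none of the 34 windows and in 0.167% and 1.33% of all windows. A match is a description of letters only, and no match says nothing about binding elsewhere.

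Library depth ranged from 13201596 to 23865382 counts, so that 1 count was worth 0.0419 to 0.0757 CPM before scaling. The identity markers of each organ (6 genes each) summed highest in that organ in every one of its libraries. A principal component analysis within each organ set 4 KO-labelled libraries furthest from the others: uterus replicate 1, ovary replicate 2, pituitary replicate 1 and hypothalamus replicate 2. Ribosomal precursor Rn45s took 3.87% of counts in ovary replicate 2 and 1.21% in hypothalamus replicate 2 of the KO-labelled group, and 0.0357% to 0.287% in the other 22 libraries. The rank correlation across genes of a library's deviations with transcript length was between -0.61 and -0.42 in the KO-labelled uterus 1, ovary 2 and pituitary 1 libraries, -0.65 in KO-labelled hypothalamus 1 and -0.41 in wild-type hypothalamus 3. For the members with the smallest p between genotypes, and the pathway genes given with them, the value without the library set furthest apart in that organ stands beside the full one.

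In wild-type mice the members were spread unevenly over the 4 organs. By mean level, 11 members were highest in the uterus, 16 in the ovary, 6 in the pituitary and 6 in the hypothalamus, while 19 were lowest in the hypothalamus. The highest organ passed the test against the next one for 23 of 39 members and the highest passed against the lowest for 37 of 39 (edgeR quasi-likelihood test over 12 wild-type libraries, Benjamini-Hochberg adjusted over all 16399 genes tested, FDR 0.05). Acvr2b, a type II activin receptor, and Bmp5, a BMP ligand, were the members in which none of the 6 pairs of organs passed. In the KO-labelled libraries 29 of 39 members were highest in the same organ as in wild type. In whole organs, fewer cells of a type and less RNA per cell cannot be told apart.

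**Figure D1:**
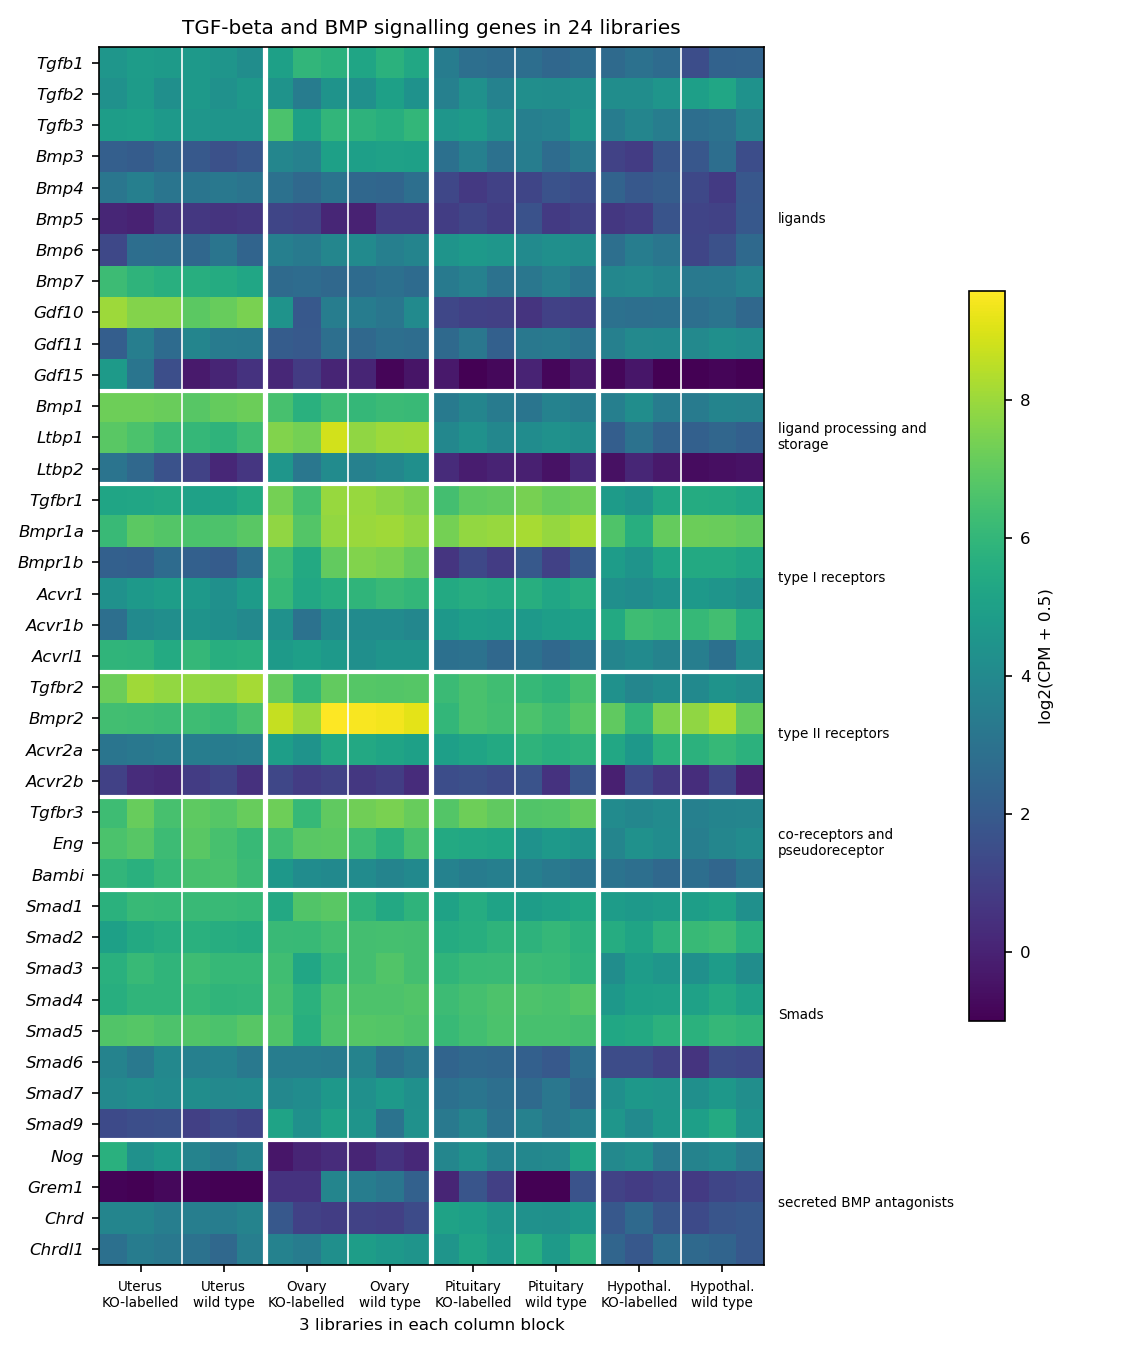
Level of each of the 39 members (rows, grouped by role) in 24 libraries (columns, 3 per block, KO-labelled left of wild type in each organ), as log2(CPM + 0.5) on a colour scale. Read along its own row, Gdf10 is brightest in the uterus, and Bmpr2 and Ltbp1 are brightest in the ovary. Gdf15 and Grem1 are dark in most libraries.

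A stricter rule asked for a level at least 2-fold higher in 1 wild-type organ than in each of the other 3, with all 3 contrasts past FDR 0.05. By that rule 5 members of 39 were higher in the uterus (9.72% of all genes were), 7 in the ovary (5.51%), 1 in the hypothalamus (12.9%) and 0 in the pituitary (4.37%). The members' share, 5 of 39, 7 of 39, 1 of 39 and 0 of 39 in that order, can be read against those percentages. For the pituitary the count of 0 came from edgeR, and DESeq2 and limma-voom also gave 0. Over all genes DESeq2 called 8.1% in the uterus, 5.23% in the ovary, 12.7% in the hypothalamus and 3.91% in the pituitary, and limma-voom 10.2%, 5.6%, 13.1% and 4.52% in the same order of organs. Without the 2-fold requirement 3 of 39 members were higher in the pituitary (Chrd, Chrdl1 and Nog), where 8.41% of all genes were, and 3 members had an unadjusted p under 0.05 in all 3 contrasts. Nog met the rule in the pituitary without wild-type pituitary 1, and Nog and Chrdl1 met it without wild-type pituitary 2.

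**Figure D2:**
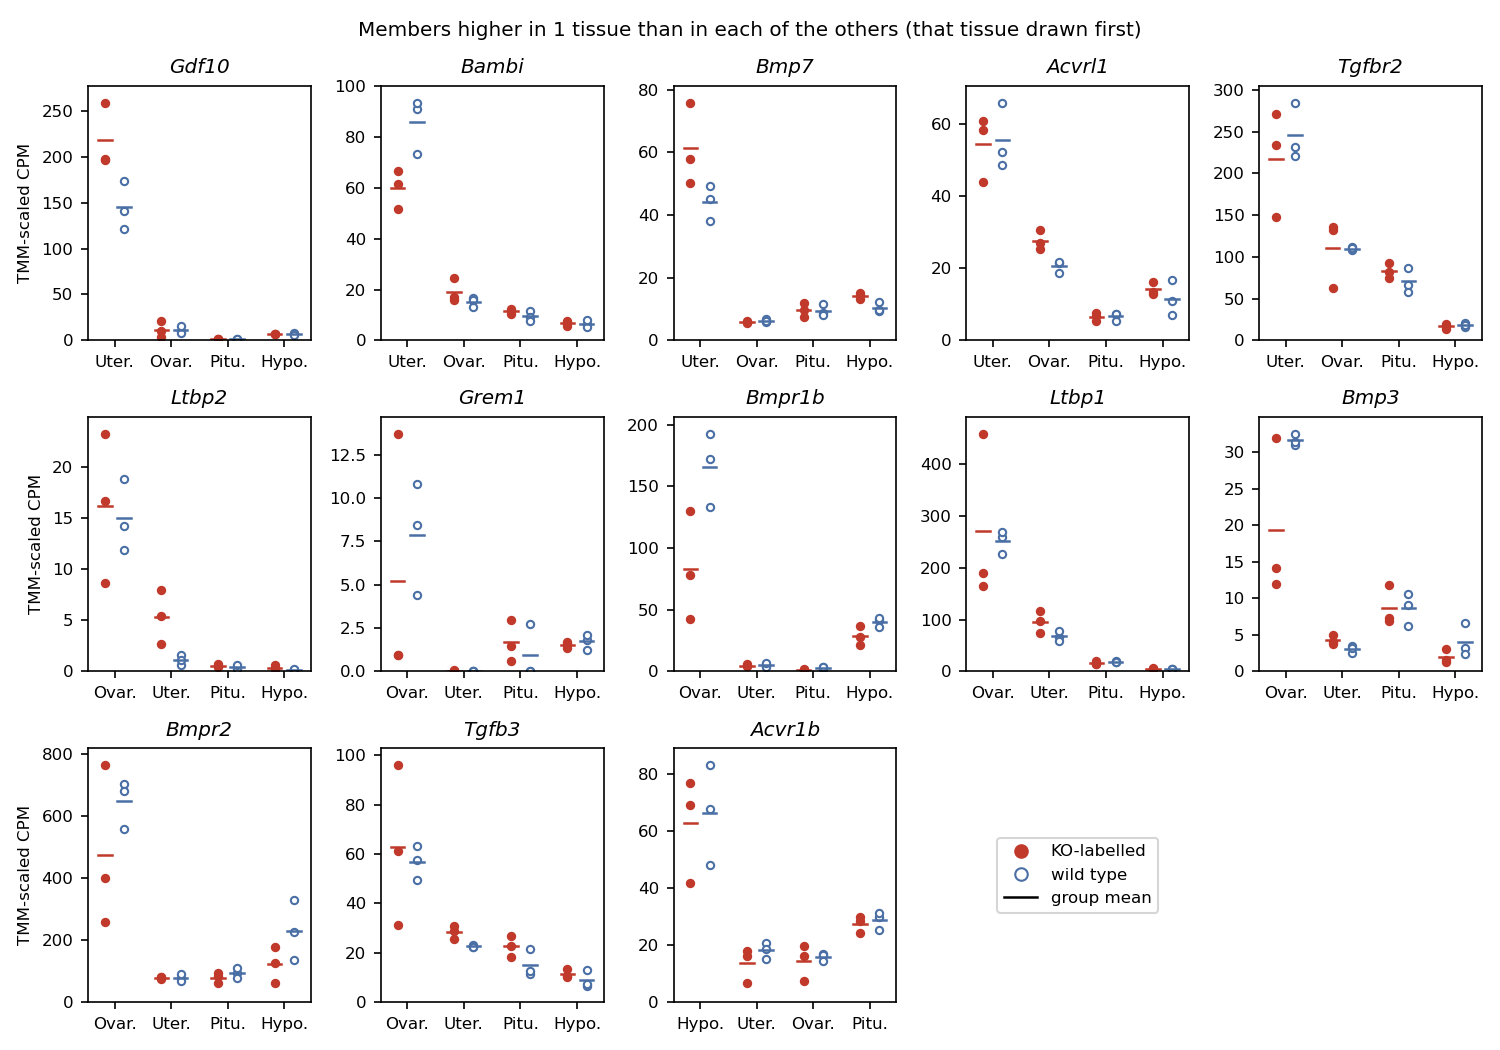
TMM-scaled CPM of the 13 members that were at least 2-fold higher in 1 wild-type organ than in each other organ, with that organ drawn first. Filled points are KO-labelled libraries, open points wild-type libraries and short lines group means. Gdf10, Bambi and Bmp7 stand apart in the uterus, and the KO-labelled ovaries spread widely for Grem1, Bmpr1b, Ltbp1 and Bmp3.

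Among the ligands, Gdf10 and Bmp7 were higher in the uterus and Bmp3 and Tgfb3 in the ovary by that rule. Gdf10, also called BMP3b, a ligand closely related to BMP3, lies on chromosome 14, 33923587 to 33937983 (mm10). It measured 121, 140 and 173 CPM in wild-type uteri, against 10.5, 8.33 and 16.2 CPM in ovaries, 6.86, 7.84 and 5.49 CPM in hypothalami and 0.990, 1.55 and 1.42 CPM in pituitaries. The lowest uterine library was above every library of the other organs, and the difference from the ovary, its closest organ, was 3.64 on the log2 scale (SE 0.25, edgeR adjusted p = 2.32e-08). All 4 organs differed in Gdf10, with 6 of 6 pairs past the threshold. Bmp7, a BMP needed for kidney and eye formation in the mouse (chromosome 2, 172868012 to 172940321), measured 49.3, 45.1 and 38.0 CPM in wild-type uteri, against 5.996 to 12.4 CPM over the 9 other wild-type libraries.

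No other wild-type library reached the lowest uterus in Bmp7. Its log2 difference over the hypothalamus, the next organ, was 2.17 (SE 0.20, edgeR adjusted p = 1.48e-07). Bmp3, a ligand that opposes other BMPs in bone (chromosome 5, 98854415 to 98884396), measured 31.0, 32.5 and 31.4 CPM in wild-type ovaries, against 10.6, 6.14 and 9.12 CPM in pituitaries, a log2 difference of 1.85 (SE 0.31, edgeR adjusted p = 0.000125). The wild-type ovaries were nearly equal in Bmp3. Tgfb3, a TGF-beta isoform that the mouse needs for palate fusion (chromosome 12, 86056745 to 86079041), measured 57.4, 49.6 and 63.3 CPM in wild-type ovaries, against 23.3, 22.6 and 22.3 CPM in uteri, a log2 difference of 1.30 (SE 0.25, edgeR adjusted p = 0.000479).

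No other ligand met the rule in the edgeR fit with TMM scaling, while Tgfb1 met it in the ovary with RLE in place of TMM and with DESeq2. Tgfb1, the isoform of immune and stromal cells, was higher in the ovary (43.8 ± 9.14 CPM) than in the uterus (21.7 ± 3.60 CPM, SD, n = 3 each) by 0.99 on the log2 scale (SE 0.23, edgeR adjusted p = 0.00218), just under 2-fold, and 6 of 6 organ pairs passed. Tgfb2 lay between 18.6 ± 0.925 CPM in the pituitary and 29.8 ± 8.64 CPM in the hypothalamus (SD, n = 3 each), and 1 of 6 pairs passed. Bmp6, which regulates iron through hepcidin in the liver, was highest in the pituitary at 17.5 ± 1.43 CPM and next in the ovary at 13.7 ± 2.55 CPM (SD, n = 3 each), and those neighbours did not differ past the threshold (edgeR adjusted p = 0.322). Bmp4, a ligand of the early embryo and of the pituitary primordium, was highest in the uterus at 8.31 ± 0.586 CPM and next in the ovary at 5.70 ± 0.951 CPM (SD, n = 3 each; edgeR adjusted p = 0.138). Gdf11, a relative of myostatin, was highest in the hypothalamus at 17.02 ± 1.66 CPM, against 11.1 ± 2.15 CPM in the uterus (SD, n = 3 each; edgeR adjusted p = 0.0325). Gdf15, a stress-induced ligand that acts through a receptor of the hindbrain, was at most 0.973 CPM in every wild-type library.

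**Figure D3:**
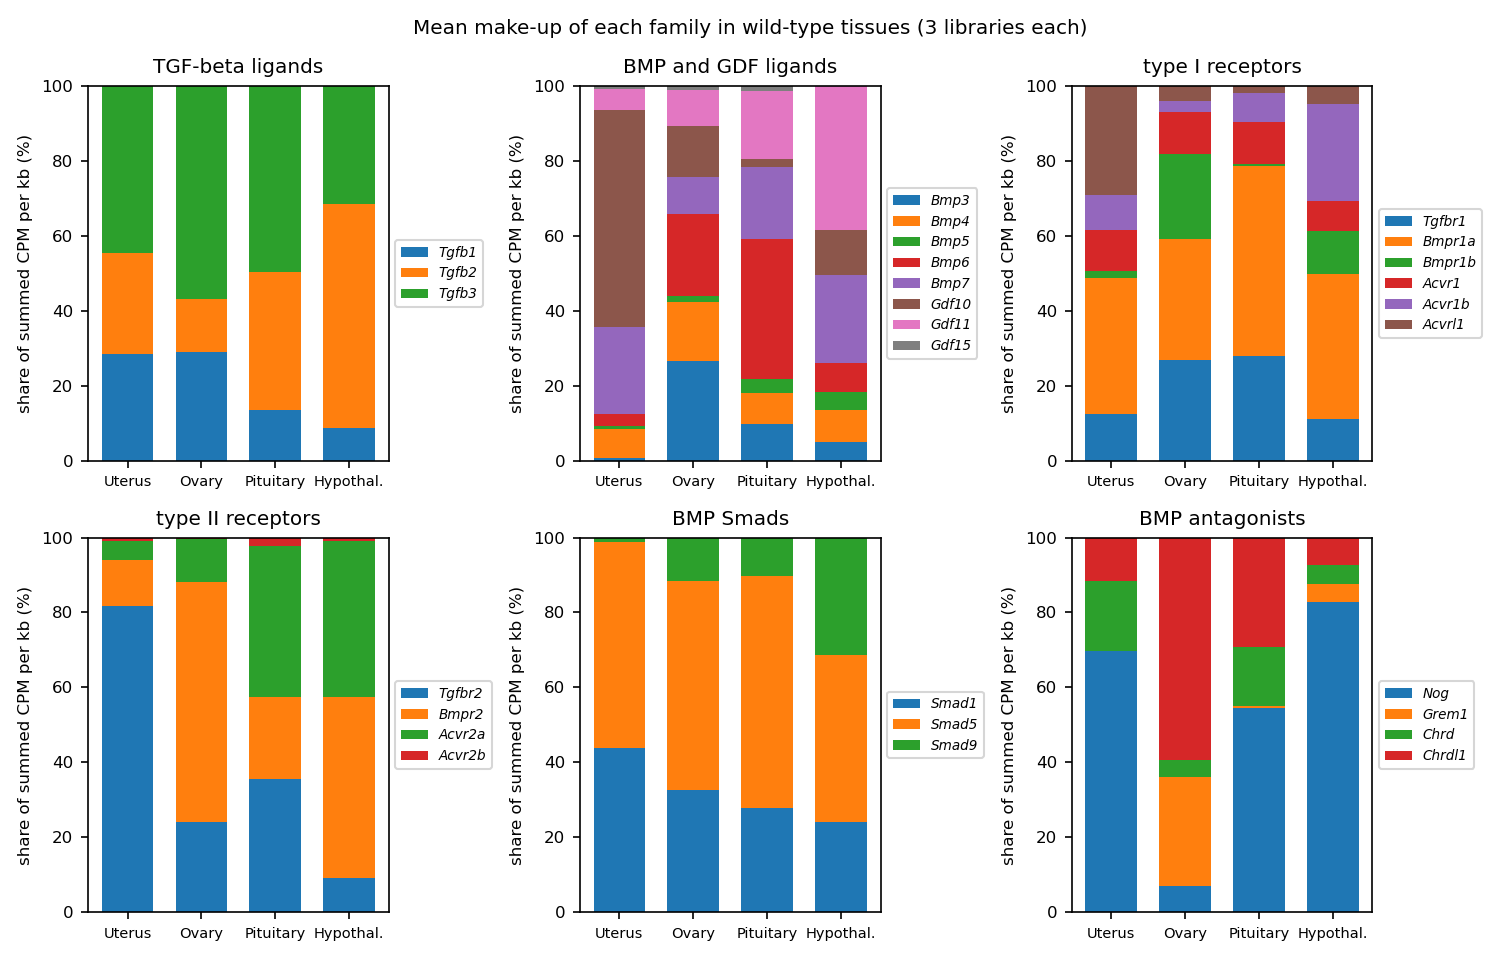
Make-up of 6 families in the 4 wild-type organs, as the mean share (%) of each member in the family's summed CPM per kb of exon, n = 3 libraries per bar. Gdf10 fills most of the uterine BMP and GDF ligand bar, Tgfbr2 most of the uterine type II bar and Bmpr2 most of the ovarian one, and Chrdl1 leads the antagonists in the ovary only.

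Per kb of exon, the levels of different genes can be set side by side and the ligand mix compared between organs. Exon length here is the union of all annotated exons of a gene, and the order of genes can change with another length. Gdf10 made 57.9% ± 6.7 of the summed BMP and GDF ligand level in wild-type uteri, and Bmp7 a further 23.2% ± 4.4 (SD, n = 3 each). In wild-type ovaries Bmp3 (26.7% ± 2.6) and Bmp6 (21.8% ± 3.8) led, in pituitaries Bmp6 (37.2% ± 2.4), and in hypothalami Gdf11 (38.3% ± 4.0; SD, n = 3 each). The summed level itself was 47.8 ± 3.10 CPM per kb in wild-type uteri, against 16.1 ± 1.22 in ovaries, 12.1 ± 0.640 in pituitaries and 11.0 ± 1.34 in hypothalami (SD, n = 3 each). Of the TGF-beta isoforms, Tgfb3 had the largest share in uterus, ovary and pituitary (44.5% ± 2.1, 56.8% ± 8.2 and 49.5% ± 7.6), and Tgfb2 had it in the hypothalamus (59.8% ± 14.5; SD, n = 3 each). Tgfb1 has 5042 bases of exon against 2573 in its longest transcript, while Tgfb3 has 3383 by both. The lead of Tgfb3 over Tgfb1 in uterus and ovary therefore depends on the length used. These shares are a description with no test.

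Of the genes for ligand processing and storage, Ltbp1 and Ltbp2 met the rule in the ovary. Ltbp2, a latent TGF-beta binding protein that binds fibrillin rather than latent TGF-beta (chromosome 12, 84783212 to 84876532), measured 11.9, 14.3 and 18.8 CPM in wild-type ovaries, against 1.62, 0.618 and 1.08 CPM in uteri, a log2 difference of 3.74 (SE 0.40, edgeR adjusted p = 1.82e-06). In pituitary and hypothalamus no wild-type library was above 0.669 CPM. Ltbp1, which anchors latent TGF-beta in the matrix (chromosome 17, 75005568 to 75392512), measured 226, 260 and 269 CPM in wild-type ovaries, against 65.9, 58.6 and 78.4 CPM in uteri, a log2 difference of 1.88 (SE 0.15, edgeR adjusted p = 1.04e-07). Its 4 organs all differed, down to 4.60 ± 0.524 CPM in the hypothalamus (SD, n = 3). Bmp1, a protease that cleaves procollagen and chordin and is no BMP in function, was highest in the uterus at 132 ± 16.4 CPM, against 69.8 ± 4.21 CPM in the ovary (SD, n = 3 each), a log2 difference of 0.93 (SE 0.17, edgeR adjusted p = 0.000238) that stayed under 2-fold.

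Of the type I receptors, 1 each met the rule in the uterus, ovary and hypothalamus. Acvrl1, also called ALK1, the endothelial receptor for BMP9 and BMP10 (chromosome 15, 101128522 to 101145336), measured 65.9, 48.7 and 52.3 CPM in wild-type uteri, against 18.6, 21.5 and 21.6 CPM in ovaries, a log2 difference of 1.45 (SE 0.25, edgeR adjusted p = 0.000185), and 0.98 in the KO-labelled libraries. The summed level of 8 endothelial markers was 621 to 780 CPM in the same uteri and 472 to 544 CPM in the ovaries, and its part in the Acvrl1 difference was not tested. Bmpr1b, also called ALK6, a BMP receptor of granulosa cells whose variant raises litter size in sheep (chromosome 3, 141837136 to 142169425), measured 193, 172 and 133 CPM in wild-type ovaries, against 42.0, 43.1 and 35.6 CPM in hypothalami, a log2 difference of 2.12 (SE 0.24, edgeR adjusted p = 1.70e-06). The uterus and pituitary had 1.55 to 6.76 CPM of it. Acvr1b, also called ALK4, the type I receptor for activin (chromosome 15, 101174067 to 101213684), measured 68.0, 83.4 and 48.4 CPM in wild-type hypothalami, against 25.6, 29.8 and 31.5 CPM in pituitaries, a log2 difference of 1.10 (SE 0.20, edgeR adjusted p = 0.000254). Without wild-type hypothalamus replicate 2 the Acvr1b difference was 0.91 and thus no longer 2-fold.

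Tgfbr1, the type I receptor for TGF-beta, was highest in the ovary (215 ± 31.8 CPM) and next in the pituitary (154 ± 14.7 CPM; SD, n = 3 each), a log2 difference of 0.46 (SE 0.15, edgeR adjusted p = 0.0175). Uterus and hypothalamus had 37.0 ± 6.29 and 42.4 ± 3.83 CPM of it and did not differ past the threshold (edgeR adjusted p = 0.553). Bmpr1a, the widely expressed BMP receptor ALK3, was the leading type I receptor per kb in all 4 organs, with 36.3% ± 3.4 of the summed type I level in uterus, 32.4% ± 1.5 in ovary, 50.9% ± 0.865 in pituitary and 38.5% ± 1.9 in hypothalamus (SD, n = 3 each). Its own level in pituitary (273 ± 31.7 CPM) and ovary (251 ± 24.1 CPM) did not differ past the threshold (SD, n = 3 each; edgeR adjusted p = 0.371). Acvr1, also called ALK2, was highest in the ovary at 64.7 ± 5.23 CPM, against 45.1 ± 6.61 CPM in the pituitary (SD, n = 3 each; edgeR adjusted p = 0.0245).

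Of the type II receptors, Tgfbr2 met the rule in the uterus and Bmpr2 in the ovary. Tgfbr2, the receptor to which TGF-beta binds first (chromosome 9, 116084293 to 116175360), measured 232, 220 and 285 CPM in wild-type uteri, against 112, 108 and 110 CPM in ovaries, a log2 difference of 1.17 (SE 0.16, edgeR adjusted p = 2.70e-05), and 0.98 in the KO-labelled libraries. Bmpr2, the main type II receptor for BMPs, with a very long transcript (chromosome 1, 59763400 to 59879014), measured 705, 680 and 559 CPM in wild-type ovaries, against 227, 330 and 135 CPM in hypothalami, a log2 difference of 1.56 (SE 0.25, edgeR adjusted p = 6.23e-05). In neither gene did the 2 ranges overlap. Per kb, Tgfbr2 made 81.7% ± 0.848 of the type II receptor level in wild-type uteri and Bmpr2 12.2% ± 0.407, whereas in wild-type ovaries Tgfbr2 made 24.1% ± 2.3 and Bmpr2 64.1% ± 2.1 (SD, n = 3 each).

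Acvr2a, a type II receptor for activin and BMPs, made 40.3% ± 3.6 of that level in the pituitary and 41.6% ± 7.3 in the hypothalamus (SD, n = 3 each). Its level did not separate those neighbours, at 54.8 ± 4.25 CPM in pituitary and 59.1 ± 6.55 CPM in hypothalamus (SD, n = 3 each; edgeR adjusted p = 0.975), and both exceeded the ovary (36.1 ± 4.49 CPM) and the uterus (10.7 ± 0.289 CPM). Acvr2b was at most 2.93 CPM in every wild-type library. Summed over all 4 type II receptors the ovary was highest, at 56.1 ± 5.13 CPM per kb, against 36.7 ± 4.76 in the uterus, 25.7 ± 6.85 in the hypothalamus and 24.1 ± 3.56 in the pituitary (SD, n = 3 each).

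Bambi, a pseudoreceptor that lacks the kinase domain and damps TGF-beta and BMP signals (chromosome 18, 3507923 to 3516404), also met the rule in the uterus. It measured 90.9, 93.6 and 73.4 CPM in wild-type uteri, against 16.7, 13.1 and 16.0 CPM in ovaries, a log2 difference of 2.51 (SE 0.20, edgeR adjusted p = 1.30e-07), and 6 of 6 organ pairs passed. The co-receptor Tgfbr3, or betaglycan, which presents TGF-beta2 and also serves inhibin, had 157 ± 18.7 CPM in ovary, 125 ± 14.2 CPM in uterus, 114 ± 14.5 CPM in pituitary and 12.9 ± 0.957 CPM in the hypothalamus (SD, n = 3 each). The difference between ovary and uterus did not pass (edgeR adjusted p = 0.0759), and that between pituitary and hypothalamus did (adjusted p = 9.58e-10). Endoglin (Eng), the endothelial co-receptor, had 92.5 ± 23.7 CPM in the uterus and 74.6 ± 17.8 CPM in the ovary, which did not differ past the threshold (edgeR adjusted p = 0.203), against 22.8 ± 2.60 CPM in the pituitary and 13.9 ± 2.73 CPM in the hypothalamus (SD, n = 3 each).

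None of the 8 Smads met the rule in any organ by edgeR, DESeq2 or limma-voom. Smad2, Smad4 and Smad5 spanned 1.77-fold, 2.74-fold and 1.76-fold from the highest to the lowest wild-type mean. Smad4, the common partner, had 100 ± 3.78 CPM in ovary, 99.1 ± 8.78 CPM in pituitary, 63.6 ± 4.19 CPM in uterus and 36.6 ± 6.80 CPM in hypothalamus (SD, n = 3 each), and its highest pair did not differ past the threshold (edgeR adjusted p = 0.975). Smad9, a Smad of the BMP branch, measured 30.9, 43.4 and 20.8 CPM in wild-type hypothalami, against 1.50, 2.02 and 1.69 CPM in uteri, a log2 difference of 4.09 (SE 0.40, edgeR adjusted p = 2.65e-07). The hypothalamus overlapped the ovary in Smad9 (21.7, 7.58 and 20.2 CPM), and Smad9 met the rule in the hypothalamus without wild-type ovary 1, ovary 3 or hypothalamus 3. Per kb, Smad9 made 31.4% ± 5.2 of the BMP Smads in the hypothalamus and 1.26% ± 0.235 in the uterus, and Smad3 made 69.9% ± 0.571 of Smad2 plus Smad3 in the uterus and 33.9% ± 2.8 in the hypothalamus (SD, n = 3 each).

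The inhibitory Smads were in unlike proportion between organs. Smad6, which mainly restrains BMP signals, and Smad7, which restrains both branches, had near equal levels per kb in wild-type uteri (48.7% ± 3.9 and 51.3% ± 3.9 of their sum), while Smad7 made 89.2% ± 3.2 in hypothalami (SD, n = 3 each). Smad6 itself measured 11.1 ± 1.60 CPM in the uterus, against 1.78 ± 0.672 CPM in the hypothalamus (SD, n = 3 each). Smad7 was 20.5 ± 3.34 CPM in the hypothalamus and 16.4 ± 1.17 CPM in the uterus (SD, n = 3 each), neighbours in its order that did not differ past the threshold (edgeR adjusted p = 0.330).

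Of the secreted antagonists, Grem1 met the rule, in the ovary. Grem1, or gremlin, an antagonist made by cumulus cells under oocyte control (chromosome 2, 113746164 to 113758646), measured 10.8, 8.44 and 4.42 CPM in wild-type ovaries, against 1.24, 1.83 and 2.11 CPM in hypothalami, a log2 difference of 2.25 (SE 0.85, edgeR adjusted p = 0.0276). Its count was 0 in 2 of 3 wild-type uteri and 2 of 3 wild-type pituitaries. The call was lost with DESeq2 (adjusted p = 0.224), without wild-type ovary 1 (0.0832) without wild-type hypothalamus 1, 2 or 3 (0.0679 to 0.0919) and in the KO-labelled libraries (0.154). Chrdl1, a chordin-like antagonist of BMP4, measured 49.98, 26.7 and 54.5 CPM in wild-type pituitaries, against 29.2, 24.7 and 21.9 CPM in ovaries, with overlapping ranges and a log2 difference of 0.82 for pituitary over ovary (SE 0.29, edgeR adjusted p = 0.0251).

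Noggin (Nog) binds BMP2 and BMP4 with high affinity. It measured 14.3, 15.5 and 35.6 CPM in wild-type pituitaries, against 13.0, 15.8 and 9.92 CPM in hypothalami (log2 difference 0.85, SE 0.32, edgeR adjusted p = 0.0334), and those ranges overlapped. In wild-type ovaries Nog was at 0.574, 0.961 and 0.661 CPM, below every wild-type library of the other 3 organs. Chrd, or chordin, had 21.1 ± 2.49 CPM in the pituitary, against 11.5 ± 1.09 CPM in the uterus (SD, n = 3 each; edgeR adjusted p = 0.00244). Per kb Nog led the antagonists in uterus (69.7% ± 2.6), pituitary (54.4% ± 9.2) and hypothalamus (82.8% ± 3.0), and Chrdl1 led in the ovary (59.3% ± 4.4) ahead of Grem1 (29.0% ± 7.0; SD, n = 3 each).

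Pathway genes outside the 39 were followed through a list of 90 symbols, of which 89 were in the tables and 78 were tested across wild-type organs. By the same rule 19 of 78 were higher in the uterus (9.72% of all genes were), 16 in the ovary (5.51%), 6 in the hypothalamus (12.9%) and 1 in the pituitary (4.37%). The uterine genes included the BMP-responsive homeobox gene Msx1, with 87.8 ± 29.3 CPM in the uterus against 8.08 ± 3.04 CPM in the pituitary, and the antagonist Chrdl2, with 20.3 ± 3.60 CPM against 1.05 ± 0.418 CPM in the ovary (SD, n = 3 each). The ovarian genes included the inhibin and activin subunits Inha, Inhba and Inhbb, the oocyte ligands Gdf9 and Bmp15, and Amh with its receptor Amhr2. Inhba measured 222 ± 31.5 CPM in the ovary, against at most 1.03 ± 0.738 CPM in another organ (SD, n = 3 each). The pituitary gene was Acvr1c, or ALK7, with 31.0 ± 8.12 CPM in the pituitary against 11.2 ± 0.870 CPM in the hypothalamus (SD, n = 3 each). Transcripts of Rgma and Hfe2, BMP co-receptors of the repulsive guidance family, were among those higher in the hypothalamus.

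Between genotypes, none of the 39 members passed FDR 0.05 in any of the 4 organs (edgeR quasi-likelihood test within each organ, 3 KO-labelled against 3 wild-type libraries, adjusted over all genes tested). In the uterus 0 of 38 tested members passed, where 0.349% of all genes did, in the ovary 0 of 39 (0%), in the pituitary 0 of 37 (0.0424%) and in the hypothalamus 0 of 37 (0%). At an unadjusted p under 0.05 there were 8 of 38 members in the uterus (12.7% of all genes), 2 of 39 in the ovary (7.68%), 8 of 37 in the pituitary (12.3%) and 4 of 37 in the hypothalamus (6.76%). DESeq2 called 4 members in the uterus (Gdf10, Gdf15, Ltbp2 and Nog), where it called 3.37% of all genes with an adjusted p, and 1 in the pituitary (Eng), where it called 0.36%. It called 0 members in the ovary (0.334% of all genes) and 0 in the hypothalamus (0.0372%). Limma-voom called 0 members in all 4 organs, where it called 0.302% of all genes in the uterus, 0.00706% in the pituitary and 0% in ovary and hypothalamus. The median log2 fold change of KO-labelled over wild type was -0.01 over members and 0.01 over all genes in the uterus, -0.14 and 0.03 in the ovary, -0.04 and -0.0012 in the pituitary, and -0.03 and 0.01 in the hypothalamus. Grem1 had too few counts to be tested in the uterus, as had Gdf15 and Ltbp2 in the pituitary and hypothalamus.

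**Figure D4:**
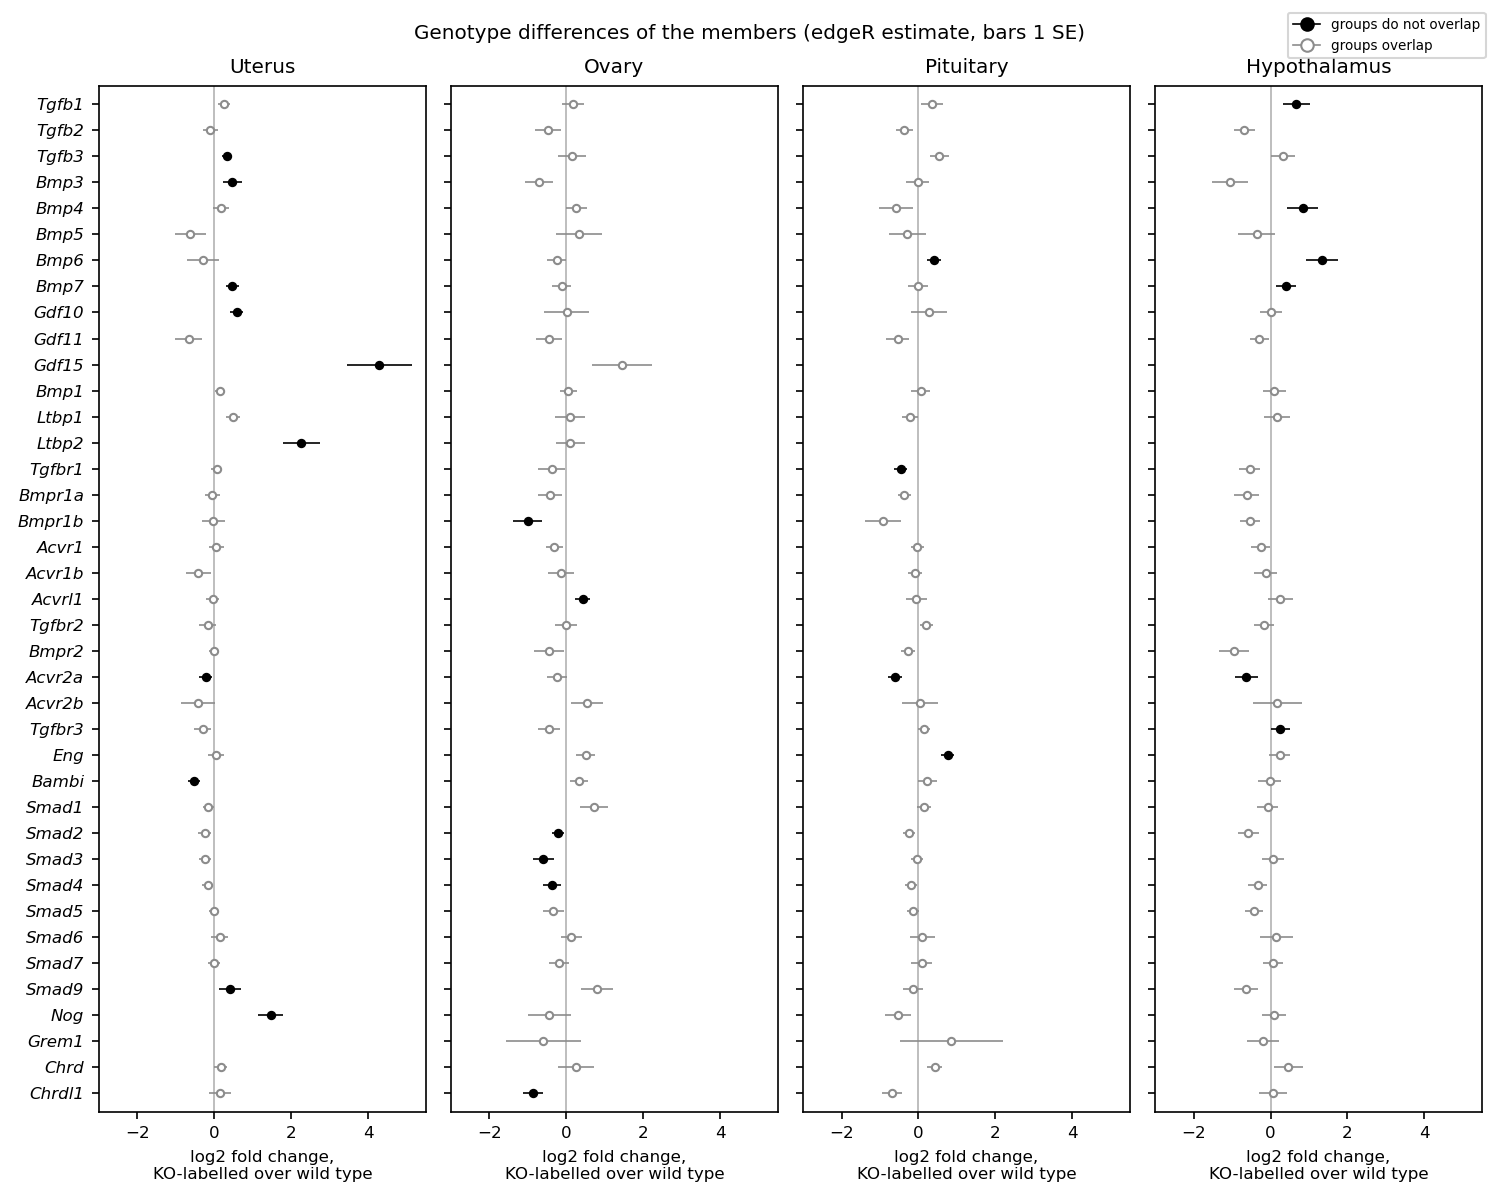
Log2 fold change of KO-labelled over wild type (x axis) with 1 SE for each tested member (rows) in each organ, from edgeR. Black points are members whose KO-labelled and wild-type libraries do not overlap in CPM, and Gdf15, Ltbp2 and Nog lie furthest to the right in the uterus.

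In the uterus the members with the smallest p were Gdf15, Ltbp2 and Nog, all higher in each KO-labelled library than in any wild-type library without passing FDR 0.05. Gdf15 (chromosome 8, 70629393 to 70632456) measured 26.6, 8.08 and 2.43 CPM in KO-labelled uteri, against 0.342, 0.577 and 0.973 CPM in wild-type uteri. The KO-labelled values differ more than 10-fold among themselves, and KO-labelled uterus 1, the library furthest from the rest, holds the highest. The log2 fold change was 4.30 (SE 0.83, edgeR adjusted p = 0.0689), and without KO-labelled uterus 1 it was 3.08 (adjusted p = 0.0515). Ltbp2 measured 8.01, 5.43 and 2.64 CPM in KO-labelled uteri, against 1.62, 0.618 and 1.08 CPM in wild-type uteri, and the log2 fold change was 2.26 (SE 0.47, edgeR adjusted p = 0.0844), or 1.87 without KO-labelled uterus 1 (adjusted p = 0.0994). The groups did not overlap, and D030025P21Rik, which shares exonic bases with Ltbp2 in these unstranded libraries, was at most 0.258 CPM in all 6 uterine libraries.

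Nog (chromosome 11, 89300638 to 89302332) measured 51.4, 20.04 and 26.1 CPM in KO-labelled uteri, against 12.8, 9.52 and 12.9 CPM in wild-type uteri, and the log2 fold change was 1.46 (SE 0.32, edgeR adjusted p = 0.0955). Without KO-labelled uterus 1 the Nog difference was 0.98 and its adjusted p 0.0444, and without KO-labelled uterus 2 it was 1.71 with an adjusted p of 0.0320. Gdf15 and Ltbp2 passed without KO-labelled uterus 3 (adjusted p = 0.00917 and 0.0280) and in 1 fit over all 24 libraries (0.0261 and 0.0306), which called 0.271% of all genes in the uterus. Over all alternatives the adjusted p of the 3 genes ran from 0.000308 to 0.420. In the authors' deposited table, 4 of 38 members had an adjusted p under 0.05 in the uterus, as had 3.49% of all genes with an adjusted p there: Ltbp2 at 0.000324, Nog at 0.00046, Gdf15 at 0.0399 and Gdf10 at 0.0485, all 4 with positive fold changes.

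Over the whole uterine set, 10 of 38 members had groups that did not overlap (19.5% of all genes tested did), 8 higher and 2 lower in KO-labelled uteri. Besides the 3 above, the higher ones were Gdf10, Bmp7, Tgfb3, Bmp3 and Smad9, and the lower ones Bambi and Acvr2a. Gdf10 measured 259, 197 and 197 CPM in KO-labelled uteri, against 121, 140 and 173 CPM in wild-type uteri (log2 fold change 0.58, SE 0.17, edgeR adjusted p = 0.193; 0.45 without KO-labelled uterus 1, adjusted p = 0.206). Bambi measured 61.5, 51.7 and 66.7 CPM in KO-labelled uteri, against 90.9, 93.6 and 73.4 CPM in wild-type uteri (log2 fold change -0.52, SE 0.15, edgeR adjusted p = 0.186; -0.53 without KO-labelled uterus 1, adjusted p = 0.154). In the uterus 18 of 38 members had a positive fold change, against 51.6% of all genes. By role, these were 7 of 11 ligands, 3 of 3 storage and processing genes, 2 of 6 type I receptors, 0 of 4 type II receptors, 1 of 3 co-receptors and pseudoreceptors, 2 of 8 Smads and 3 of 3 tested antagonists, and no member passed. The summed BMP and GDF ligand level was 71.6 ± 15.4 CPM per kb in KO-labelled uteri and 47.8 ± 3.10 CPM per kb in wild-type uteri, and that of the antagonists 22.6 ± 9.66 and 9.94 ± 1.63 CPM per kb in the same order (SD, n = 3 each).

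Markers of other cells also differed between the uterine libraries. The sum of 7 neutrophil markers was 482 to 819 CPM in KO-labelled uteri and 178 to 328 CPM in wild-type uteri, with Ngp, Camp and Elane at 0 in all KO-labelled and Ngp and Elane at 0 in all wild-type uteri. The sum of 7 oocyte markers was 21.4 CPM in KO-labelled uterus 1 and 1.55 to 2.31 CPM in the other 5 uteri, with Oosp1 at 0 in all wild-type uteri. The sum of 7 adipose markers was 3.32 to 23.9 CPM in KO-labelled uteri and 2.09 to 3.42 CPM in wild-type uteri, with overlap. Lower in each KO-labelled than in any wild-type uterus were the sums of 6 uterus identity markers (1030.1 to 1137 against 1220.5 to 1327 CPM), of 5 markers of theca and ovarian stroma (491 to 520.1 against 650.1 to 689 CPM) and of 6 oviduct markers (248 to 273 against 300.4 to 308 CPM, with Sntn at 0 in both groups). The oviduct and theca lists are not specific to those tissues. The oviduct list summed to 603 to 851 CPM in wild-type hypothalami and 120 to 148 CPM in wild-type ovaries, and the theca list to 454 to 1014 CPM in wild-type ovaries. Of the markers tested in the uterus, 4 of 6 uterus, 2 of 3 theca and 4 of 5 oviduct markers had a negative fold change. The part of these lists in the values of the uterine members was not tested. Of 72 pathway genes tested in the uterus, 0 passed FDR 0.05 by edgeR (0.349% of all genes did). There were 14 with an unadjusted p under 0.05 (12.7% of all genes). The smallest p was that of Pmepa1, an intracellular inhibitor induced by TGF-beta, at 42.3, 35.4 and 33.9 CPM in KO-labelled uteri, against 24.2, 22.8 and 22.7 CPM in wild-type uteri (log2 fold change 0.67, SE 0.14, edgeR adjusted p = 0.0796). Fst, or follistatin, which binds activin, measured 14.7, 32.3 and 22.2 CPM in KO-labelled uteri, against 61.9, 54.2 and 40.4 CPM in wild-type uteri (log2 fold change -1.18, SE 0.28, edgeR adjusted p = 0.115). Without KO-labelled uterus 1 the difference was 0.58 for Pmepa1 (edgeR adjusted p = 0.0605) and -0.93 for Fst (0.109). Both had groups that did not overlap, and both passed with DESeq2 (adjusted p = 0.00288 for Pmepa1 and 0.00233 for Fst).

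**Figure D5:**
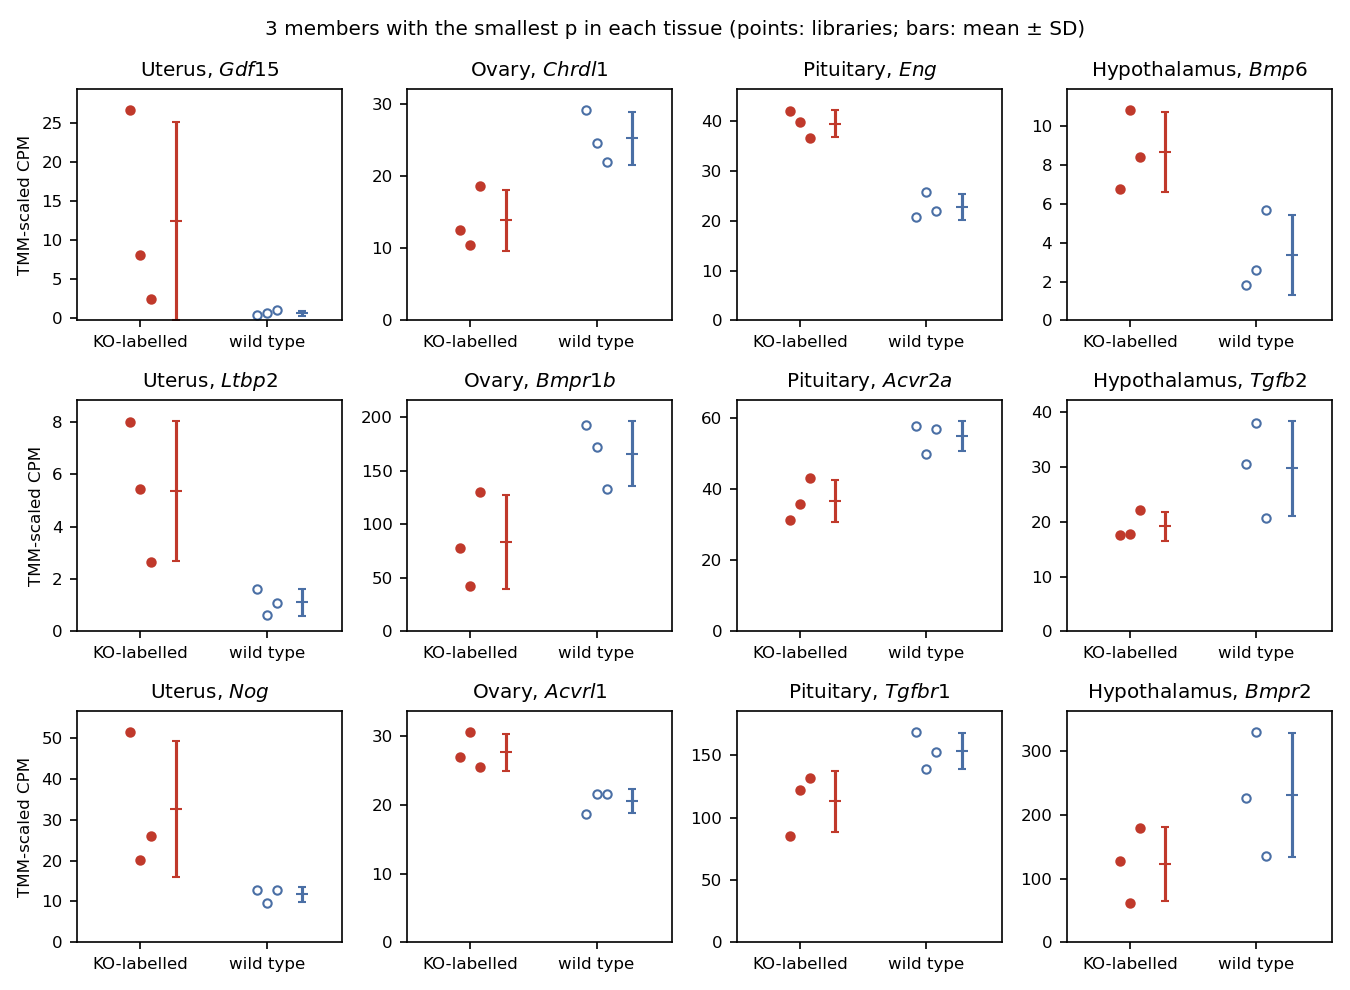
TMM-scaled CPM of the 3 members with the smallest p in each organ, with KO-labelled libraries (filled) left of wild type (open), points in order of replicate number, and mean ± SD beside them (n = 3 each). Gdf15 in the uterus spans 2.43 to 26.6 CPM among KO-labelled libraries, and the hypothalamic groups of Tgfb2 and Bmpr2 overlap.

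In the ovary the members with the smallest p were Chrdl1, Bmpr1b and Acvrl1. Chrdl1 measured 12.5, 10.5 and 18.7 CPM in KO-labelled ovaries, against 29.2, 24.7 and 21.9 CPM in wild-type ovaries (log2 fold change -0.87, SE 0.26, edgeR adjusted p = 0.597). Bmpr1b measured 77.8, 42.2 and 130 CPM in KO-labelled ovaries, against 193, 172 and 133 CPM in wild-type ovaries (log2 fold change -1.004, SE 0.38, edgeR adjusted p = 0.597). Neither gene had overlapping groups, and for Bmpr1b the highest KO-labelled value lay next to the lowest wild-type value. Acvrl1 measured 26.9, 30.6 and 25.4 CPM in KO-labelled ovaries, against 18.6, 21.5 and 21.6 CPM in wild-type ovaries (log2 fold change 0.42, SE 0.19, edgeR adjusted p = 0.597). Without KO-labelled ovary 2 the differences were -0.70 for Chrdl1, -0.68 for Bmpr1b and 0.34 for Acvrl1 (edgeR adjusted p = 0.383, 0.433 and 0.466 in that order). The sum of 8 endothelial markers was 477 to 854 CPM in KO-labelled and 472 to 544 CPM in wild-type ovaries, 8 of 8 had a positive fold change with a median of 0.30, none was at 0 in a group, and their part in the Acvrl1 difference was not tested.

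Some members spread widely among the KO-labelled ovaries. Grem1 measured 0.970, 0.952 and 13.7 CPM in KO-labelled ovaries, against 10.8, 8.44 and 4.42 CPM in wild-type ovaries, so the KO-labelled values lay on both sides, and without KO-labelled ovary 2 its log2 fold change was -0.12. Bmpr2 measured 402, 257 and 766 CPM in KO-labelled ovaries, against 705, 680 and 559 CPM in wild-type ovaries, and Ltbp1 ranged over 165 to 459 CPM against 226 to 269 CPM. Of all 39 members 17 had a positive fold change in the ovary, against 52.5% of all genes, and 6 of 39 had groups that did not overlap (17.6% of all genes tested did): Acvrl1 higher, and Bmpr1b, Chrdl1, Smad2, Smad3 and Smad4 lower in KO-labelled ovaries. Corpus luteum markers (6 genes) summed to 13409 to 34912 CPM in KO-labelled ovaries and 12825 to 18873 CPM in wild-type ovaries, growing-follicle granulosa markers (7 genes) to 1613 to 2003 and 1835 to 2649 CPM, and adipose markers (7 genes) to 25.9 to 291 and 16.8 to 940 CPM, in the same order. No marker of these 3 lists was at 0 in a whole group. The KO-labelled ovaries lay wholly above the wild-type ones in the sums of 6 smooth muscle markers (1480.5 to 2290 against 1414 to 1455 CPM) and 6 macrophage markers (282 to 395 against 212 to 257 CPM). Of the smooth muscle markers 6 of 6 had a positive fold change, of the macrophage markers 4 were positive and 2 negative, and 0 passed FDR 0.05 by edgeR. They lay wholly below in the sum of 7 neutrophil markers (1.71 to 2.94 against 3.44 to 4.43 CPM, with Elane at 0 in both groups and Ngp at 0 in wild type). The part of these lists in the ovarian values was not tested. Of 69 pathway genes tested 0 passed FDR 0.05 by edgeR (0% of all genes did) and 8 had an unadjusted p under 0.05 (7.68% of all genes). The smallest p was that of Fbn2, at 29.1, 37.4 and 55.7 CPM in KO-labelled ovaries, against 76.6, 79.1 and 67.6 CPM in wild-type ovaries (log2 fold change -0.88, SE 0.25, edgeR adjusted p = 0.597). Lefty1, a ligand that opposes Nodal, measured 3.45, 4.57 and 3.68 CPM in KO-labelled ovaries, against 2.09, 1.33 and 2.11 CPM in wild-type ovaries (log2 fold change 1.07, SE 0.35, edgeR adjusted p = 0.597). Without KO-labelled ovary 2 the difference was -0.82 for Fbn2 and 0.95 for Lefty1 (edgeR adjusted p = 0.389 and 0.431).

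In the pituitary endoglin had the smallest p of the members. Eng (chromosome 2, 32646595 to 32682669) measured 42.1, 39.8 and 36.7 CPM in KO-labelled pituitaries, against 20.8, 25.8 and 21.9 CPM in wild-type pituitaries. The groups lay well apart, and the log2 fold change was 0.76 (SE 0.17, edgeR adjusted p = 0.288), 0.73 without KO-labelled pituitary 1 (adjusted p = 0.248) and 0.50 after a correction for GC content and transcript length within libraries. DESeq2 gave an adjusted p of 0.0348, and the authors' deposited table gave 0.0376, the only one of 31 members under 0.05 there (0.33% of all genes with an adjusted p were). Fpgs, which shares exonic bases with Eng, measured 11.8 to 12.8 CPM in KO-labelled and 8.79 to 18.7 CPM in wild-type pituitaries.

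Endothelial markers ran alongside Eng. The sum of 8 of them (Pecam1, Cdh5, Kdr, Tek, Tie1, Emcn, Plvap and Cldn5) was 356 to 435 CPM in KO-labelled pituitaries and 200 to 285 CPM in wild-type pituitaries, and none was at 0 in a group. A positive fold change was found in 8 of 8, with a median of 0.46, and 1 of 8 passed FDR 0.05 by edgeR (0.0424% of all genes did). Acvrl1, the other endothelial receptor among the members, measured 6.89, 7.54 and 5.38 CPM in KO-labelled pituitaries, against 7.29, 5.40 and 7.45 CPM in wild-type pituitaries, and so overlapped. Other lists lay wholly lower in KO-labelled than in wild-type pituitaries: 6 fibroblast and stroma markers summed to 317 to 373 against 417 to 455 CPM (5 of 6 negative, median log2 fold change -0.42). Likewise 6 astrocyte and tanycyte markers summed to 66.1 to 91.8 against 94.9 to 132 CPM, and 6 ovary identity markers to 26.9 to 36.3 against 43.7 to 65.9 CPM, with Fshr at 0 in both groups and Zp3 at 0 in KO-labelled pituitaries. The 7 neutrophil markers summed to 1.81 to 4.19 CPM in KO-labelled and 9.87 to 160.02 CPM in wild-type pituitaries, with Elane at 0 in KO-labelled pituitaries. The 6 markers of the intermediate and posterior lobes overlapped, at 520.3 to 587 CPM in KO-labelled and 570.1 to 858 CPM in wild-type pituitaries, with 6 of 6 negative and a median of -0.34. The 6 pituitary identity markers, hormone genes among them, summed higher in each KO-labelled pituitary (727780 to 1089700 CPM on the TMM scale) than in any wild-type one (456010 to 687740 CPM). Of these 6 markers, 4 had a positive and 2 a negative fold change, and 0 passed FDR 0.05 by edgeR. Prl and Gh, which are 2 of them, took 45.4% to 54.8% of counts in KO-labelled and 34.7% to 44.1% in wild-type pituitaries. The part of the endothelial and other markers in the pituitary differences was not tested. Of 60 pathway genes tested 0 passed FDR 0.05 by edgeR (0.0424% of all genes did) and 10 had an unadjusted p under 0.05 (12.3% of all genes). The smallest p values were those of the BMP target genes Id3 and Id1. Id3 measured 17.2, 21.0 and 22.6 CPM in KO-labelled pituitaries, against 11.9, 7.77 and 6.78 CPM in wild-type pituitaries (log2 fold change 1.17, SE 0.25, edgeR adjusted p = 0.245), and passed with DESeq2 (adjusted p = 0.00965), with no filter on low counts (0.0471) and with the replicate number as a block (0.0440). Id1 measured 19.5, 29.7 and 26.2 CPM in KO-labelled pituitaries, against 17.2, 10.2 and 7.78 CPM in wild-type pituitaries (log2 fold change 1.08, SE 0.28, edgeR adjusted p = 0.289). Without KO-labelled pituitary 1 the difference was 1.29 for Id3 and 1.24 for Id1 (edgeR adjusted p = 0.185 and 0.233).

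The receptors Acvr2a and Tgfbr1 were lower in each KO-labelled than in any wild-type pituitary, also without passing. Acvr2a measured 31.2, 35.7 and 43.1 CPM in KO-labelled pituitaries, against 57.8, 49.96 and 56.7 CPM in wild-type pituitaries (log2 fold change -0.61, SE 0.17, edgeR adjusted p = 0.289). Orc4, which shares exonic bases with Acvr2a in these unstranded libraries, measured 32.8 to 36.4 CPM in KO-labelled and 46.1 to 51.7 CPM in wild-type pituitaries. Tgfbr1 measured 85.6, 123 and 132 CPM in KO-labelled pituitaries, against 169, 139 and 153 CPM in wild-type pituitaries (log2 fold change -0.47, SE 0.17, edgeR adjusted p = 0.333). With GC and length trends removed the differences were -0.34 for Acvr2a and -0.23 for Tgfbr1, and without KO-labelled pituitary 1 they were -0.49 for Acvr2a and -0.29 for Tgfbr1 (edgeR adjusted p = 0.324 and 0.447). In the pituitary 15 of 37 members had a positive fold change, against 49.9% of all genes. By role, these were 4 of 10 tested ligands, 1 of 2 storage and processing genes, 0 of 6 type I receptors, 2 of 4 type II receptors, 3 of 3 co-receptors and pseudoreceptors, 3 of 8 Smads and 2 of 4 antagonists, and no member passed. Of 37 members 4 had groups that did not overlap (19.3% of all genes tested did), Eng and Bmp6 higher and Acvr2a and Tgfbr1 lower in KO-labelled pituitaries.

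In the hypothalamus the members with the smallest p were Bmp6, Tgfb2 and Bmpr2. Bmp6 measured 6.76, 10.8 and 8.41 CPM in KO-labelled hypothalami, against 1.82, 2.57 and 5.70 CPM in wild-type hypothalami (log2 fold change 1.33, SE 0.42, edgeR adjusted p = 0.588). Its groups did not overlap, and Txndc5, which shares exonic bases with it, measured 103 to 175 CPM in KO-labelled and 104 to 115 CPM in wild-type hypothalami. Tgfb2 measured 17.5, 17.9 and 22.2 CPM in KO-labelled hypothalami, against 30.6, 38.0 and 20.8 CPM in wild-type hypothalami (log2 fold change -0.68, SE 0.28, edgeR adjusted p = 0.588), and its groups overlapped. Bmpr2 measured 128, 62.5 and 179 CPM in KO-labelled hypothalami, against 227, 330 and 135 CPM in wild-type hypothalami (log2 fold change -0.95, SE 0.40, edgeR adjusted p = 0.588), and it overlapped too. With GC and length trends removed the 3 differences were 0.997, -0.41 and -0.14 in that order, and without KO-labelled hypothalamus 2 they were 1.14 for Bmp6, -0.62 for Tgfb2 and -0.62 for Bmpr2 (edgeR adjusted p = 0.875 for each). Without wild-type hypothalamus 2 the difference was -0.47 for Tgfb2 and -0.61 for Bmpr2.

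Of 37 members tested in the hypothalamus, 6 had groups that did not overlap (11.5% of all genes tested did), 5 higher (Tgfb1, Bmp4, Bmp6, Bmp7 and Tgfbr3) and 1 lower (Acvr2a) in KO-labelled libraries. Bmp4 measured 4.59, 3.23 and 3.85 CPM in KO-labelled hypothalami, against 1.97, 1.26 and 3.17 CPM in wild-type hypothalami. In the hypothalamus 18 of 37 members had a positive fold change, against 50.7% of all genes. By role, these were 6 of 10 tested ligands, 2 of 2 storage and processing genes, 1 of 6 type I receptors, 1 of 4 type II receptors, 2 of 3 co-receptors and pseudoreceptors, 3 of 8 Smads and 3 of 4 antagonists, and no member passed. Of 67 pathway genes 0 passed FDR 0.05 by edgeR (0% of all genes did) and 5 had an unadjusted p under 0.05 (6.76% of all genes). The smallest p values were those of the collagen genes Col1a1 and Col1a2. Col1a1 measured 5.81, 20.9 and 6.11 CPM in KO-labelled hypothalami, against 2.48, 2.75 and 2.18 CPM in wild-type hypothalami (log2 fold change 2.10, SE 0.49, edgeR adjusted p = 0.588), without KO-labelled hypothalamus 2 the difference was 1.23, and DESeq2 gave an adjusted p of 0.0408. Col1a2 measured 15.9, 42.4 and 20.2 CPM in KO-labelled hypothalami, against 9.92, 8.81 and 14.1 CPM in wild-type hypothalami (log2 fold change 1.22, SE 0.37, edgeR adjusted p = 0.588; 0.69 without KO-labelled hypothalamus 2). Markers of meninges and pericytes (6 genes) summed to 84.2 to 107 CPM in KO-labelled and 74.9 to 121 CPM in wild-type hypothalami, with none at 0 in a group. The KO-labelled hypothalami lay wholly below the wild-type ones in the sums of 6 astrocyte and tanycyte markers (1484 to 1962 against 2021 to 2291 CPM), 6 corpus luteum markers (7.79 to 11.9 against 12.6 to 15.4 CPM) and 7 neutrophil markers (2.61 to 2.63 against 3.45 to 4.96 CPM, with Elane at 0 in wild type). Yet 4 of 6 astrocyte and tanycyte markers had a positive fold change, with a median of 0.20, so most did not follow their sum. Of the corpus luteum markers 3 of 5 tested were negative, and of the neutrophil markers 2 of 2 tested. The part of these lists in the hypothalamic values was not tested. Over the 4 organs, the listed transcriptional targets of the pathway had a positive fold change in 14 of 19 genes tested in the uterus, 11 of 17 in the ovary, 10 of 17 in the pituitary and 12 of 18 in the hypothalamus, and none passed FDR 0.05 by edgeR. The share of all genes with a positive fold change was 51.6%, 52.5%, 49.9% and 50.7% in the same order. At an unadjusted p under 0.05 there were 5, 3, 5 and 3 targets, where 12.7%, 7.68%, 12.3% and 6.76% of all genes were under it.

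Whether a member's genotype difference itself differed between organs was asked with the tissue by genotype interaction over all 24 libraries. By edgeR 0 of 39 members passed FDR 0.05, where 0.053% of all genes did, and 7 of 39 had an unadjusted p under 0.05 (7.37% of all genes). DESeq2 and limma-voom also called 0 members, where they called 0.983% and 0.0589% of all genes. Labels do not say whether same-numbered libraries of different organs came from the same mice, and the fits across organs treat the libraries as independent. Nog had the smallest p, with an F of 5.39 (adjusted p = 0.453), and Gdf15 the next, with an F of 4.86 (adjusted p = 0.492). The log2 fold change of Nog was 1.46 in the uterus, -0.45 in the ovary, -0.53 in the pituitary and 0.10 in the hypothalamus.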

How the data were processed

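Poly-A RNA libraries were prepared with a TruSeq kit that does not mark strand from 0.5 ug of total RNA (RNA integrity number at least 8), per the labels. Per the submitters' processing notes, build mm10 was used with STAR, HTSeq, DESeq2, FastQC and Trimmomatic; no source used here gives their versions. The authors deposited raw counts per gene symbol, and, per comparison, log2 fold changes with p-values and adjusted p-values. From the 24222 rows, 27 whose symbols had become dates (0.122% to 0.392% of counts) were left out.

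Counts were fitted with edgeR 4.0.16 in R 4.3.3 (TMM, filterByExpr, robust quasi-likelihood F test, Benjamini-Hochberg FDR 0.05). DESeq2 1.42.0 and limma 3.58.1 (voom) served as alternatives, beside other filters, normalizations and left-out libraries. The test code was tested on simulated data. CPM per kb divides by the union exon length of a gene in GENCODE vM21, and figures were drawn in Python 3.11.15 with pandas 2.3.3 and matplotlib 3.10.9. Depth was 13201596 to 23865382 counts. The 39 members and the lists of pathway genes and markers were chosen with earlier results of these data known. Full values are given for the 3 members and 2 pathway genes with the smallest p per organ, and for up to 5 members called highest per organ. Other genes named with values were chosen after their values were seen.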

Additional observations from a re-analysis of the deposited data

How the results depend on the processing

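Over 35 results on single genes and 626 alternatives, 593 kept direction and side of the threshold, 16 no longer passed, 17 newly passed and 0 changed direction. The interaction F values among them (28 alternatives for Nog and 27 for Gdf15) have no sign and could not change direction. The genes were also chosen by smallest p or by meeting the organ rule, which makes a change of direction less likely. For the members between genotypes (0 in each organ), the uterus gave 4 with DESeq2, 2 in 1 fit over 24 libraries and 0 to 2 with a library left out, and the pituitary gave 1 with DESeq2. Over all genes the uterus (52 calls) gave 108 with no filter, 542 with DESeq2 and 0 to 171 with a library left out. The ovary (0) gave 1 with no filter, 48 with DESeq2, 34 in 1 fit over 24 libraries, 1 after correction for GC and length and 0 to 2 with a library left out. The pituitary (6) gave 16 with no filter, 46 with DESeq2, 1 with limma-voom, 33 with the replicate block and 1 to 10 with a library left out. The hypothalamus (0) gave 7 with DESeq2 and 1 after correction for GC and length. The interaction (9) gave 4 with RLE scaling, 163 with DESeq2, 2 with the replicate block and 2 to 23 with a library left out. The cause of these moves was not tested.

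For members higher in 1 wild-type organ, the uterus (5) gave 3 at 4-fold. In KO-labelled libraries the uterus gave 6 (7.7% of all genes), where Acvrl1 and Tgfbr2 were lost and Bmp1, Gdf15 and Nog were gained. The ovary (7) gave 11 by FDR alone (9.43% of all genes) and 3 at 4-fold. The pituitary (0) gave 3 in KO-labelled libraries (4.3% of all genes), 3 by FDR alone (8.41%) and 0 to 2 with a library left out. The hypothalamus (1) gave 2 in KO-labelled libraries (13.4%), 3 by FDR alone (18.3%), 0 at 4-fold and 0 to 2 with a library left out. Over all genes, FDR alone and 4-fold gave 2631 and 737 in the uterus (1594), 1546 and 462 in the ovary (904), 1379 and 287 in the pituitary (716), and 3009 and 1243 in the hypothalamus (2112).

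The replicate numbers were not taken as pairs within an organ: same-numbered KO-labelled and wild-type libraries of 1 organ correlated between -0.312 and 0.252 in their deviations from group means. Between organs, same-numbered libraries correlated between -0.406 and 0.449 in the KO-labelled and between -0.129 and 0.135 in the wild-type group. All 3 numbers were over 0.1 for KO-labelled uterus and pituitary (0.449, 0.293 and 0.135), and whether those are the same mice is not in the labels. With the replicate block 0 members passed in each of the 4 organs and in the interaction, and the uterus gave 38 genes in all. RLE in place of TMM changed the library scaling between wild-type organs, and the largest shift was -0.12 on the log2 scale (uterus against hypothalamus).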
